A study of Mus musculus with 28 samples.

Results

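The mouse genes symbolised Zfp900 to Zfp999 are zinc finger genes, and 33 of the 27179 genes in the chromatin RNA count table carry such a symbol, from Zfp930 to Zfp964. They were chosen by symbol alone, with no measured value in the rule, but earlier results of these data were known. Of them, 32 had a value in every total RNA-seq library. The remaining member, Zfp957, had no value there and 0 reads in both chromatin RNA libraries. All cells were of, or derived from, the E14 line of mouse embryonic stem cells (mESCs), which was grown with serum and LIF on gelatin. For the 4 control and 4 Ssrp1-KD libraries, to which spike-in RNA was added, cells had been transfected with shRNA vectors (scrambled in the control, against Ssrp1 in the KD), selected with puromycin at 2 µg/ml for 24 h from 48 h after transfection, and sequenced as total RNA. SSRP1 and SUPT16 are the subunits of FACT, a histone chaperone that takes nucleosomes apart and rebuilds them as RNA polymerase passes. The KD cells were selected pools, in which Ssrp1 stood at 26.1 ± 2.13 against 235 ± 17.6 in the control (SD, n = 4 each; log2 fold change -3.15). The other measurements were 2 chromatin-bound RNA libraries of mESCs and lists of SSRP1 and SUPT16 ChIP-seq peaks, each called on 2 replicates together. An average level was also read for a comparison with 3 libraries of early-stage neural progenitor cells (NPCs), made from embryoid bodies given 1 µM retinoic acid for 4 days and then kept for 3 days without LIF.

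Most genes of this family encode proteins with a KRAB domain near one end and a row of C2H2 zinc fingers near the other. The fingers read DNA, often within retrotransposons, and the KRAB domain binds TRIM28, which brings SETDB1 and other silencing enzymes that place H3K9 trimethylation. In mESCs this system keeps endogenous retroviruses silent and, through ZFP57, keeps imprinted regions methylated. Zinc finger genes of this kind lie in clusters of recent duplicates, so that neighbours can share long stretches of sequence.

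The exon lists of the count table showed that structure. The exon length that most members had in common was 127 bases, the typical size of the exon for the KRAB A box, and 32 of 33 members (97%) listed it, against 48.4% of 304 genes named Zfp1 to Zfp899 and 6.08% of 21432 protein-coding genes. An exon of 61 bases was listed in 17 members (51.5%), against 7.89% of Zfp1 to Zfp899. Zfp957 listed neither. The last exon, which holds the fingers in such genes, made up a median of 85.6% of the summed exon length. This was near the 83.5% of Zfp1 to Zfp899 and above the 49.2% of protein-coding genes. The listed last exon made up only 5.35% in Zfp939 and 18.7% in Zfp932. Matches to the spacing of a C2H2 finger in the open reading frames of GENCODE M21 transcripts numbered 6 to 18 in 31 of the 32 members with such a transcript. The median was 11, near the 10 of 300 genes named Zfp1 to Zfp899. Zfp945 had the most, and Zfp957 had no match to this spacing.

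Chromosome 17 held 10 members, and chromosomes 7 and 8 held 5 each (coordinates of mm10). Of the chromosome 17 members, Zfp942, Zfp943, Zfp944, Zfp946 and Zfp947 lay between Zfp948 and Zfp945, and Zfp942 and Zfp943 stood head to head with only 94 bases between their listed starts. The RefSeq promoter table (GRCm38.p6, from 250 bases before to 50 after a gene's start) held a window for 30 members. The 4 windows shown here belong to the only called member (Zfp964), the member with most SSRP1 peaks (Zfp961) and a nearly identical pair on chromosome 17 (Zfp944 and Zfp942). They are written from 5′ to 3′ in the direction of transcription, and capitals mark the bases inside a SSRP1 peak.
Zfp964, chr8:69654306-69654605, plus strand: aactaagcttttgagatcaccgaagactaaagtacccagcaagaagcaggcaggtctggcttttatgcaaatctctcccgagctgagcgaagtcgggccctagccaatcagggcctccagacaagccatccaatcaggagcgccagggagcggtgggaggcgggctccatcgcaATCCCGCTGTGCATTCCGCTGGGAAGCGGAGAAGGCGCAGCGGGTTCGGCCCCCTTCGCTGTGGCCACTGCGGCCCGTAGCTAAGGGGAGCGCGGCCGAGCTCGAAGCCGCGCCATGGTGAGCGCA
Zfp961, chr8:71950816-71951115, plus strand: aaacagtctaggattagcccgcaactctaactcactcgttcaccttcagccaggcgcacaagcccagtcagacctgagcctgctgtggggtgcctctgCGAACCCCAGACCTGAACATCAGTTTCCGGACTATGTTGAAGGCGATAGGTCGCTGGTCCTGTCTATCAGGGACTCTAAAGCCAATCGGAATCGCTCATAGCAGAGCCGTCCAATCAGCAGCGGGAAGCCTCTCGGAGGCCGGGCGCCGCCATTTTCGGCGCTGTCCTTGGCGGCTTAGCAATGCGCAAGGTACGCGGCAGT
Zfp944, chr17:22361351-22361650, minus strand: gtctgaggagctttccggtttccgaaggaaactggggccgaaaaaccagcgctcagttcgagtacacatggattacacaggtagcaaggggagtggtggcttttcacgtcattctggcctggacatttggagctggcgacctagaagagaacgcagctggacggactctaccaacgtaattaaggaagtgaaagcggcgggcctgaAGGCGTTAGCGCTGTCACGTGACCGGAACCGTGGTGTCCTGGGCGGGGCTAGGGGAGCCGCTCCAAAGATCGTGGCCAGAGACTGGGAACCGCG
Zfp942, chr17:21962415-21962714, minus strand: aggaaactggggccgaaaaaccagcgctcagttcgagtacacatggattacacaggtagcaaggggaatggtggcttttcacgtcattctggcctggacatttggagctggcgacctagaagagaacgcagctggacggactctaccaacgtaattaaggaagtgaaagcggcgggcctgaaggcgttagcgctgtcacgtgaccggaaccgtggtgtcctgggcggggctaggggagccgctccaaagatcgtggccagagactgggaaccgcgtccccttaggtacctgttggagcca
The windows of Zfp942 and Zfp944 matched at 274 of 275 bases when shifted against each other. A SSRP1 peak was listed over the start of Zfp944 only, and reads from these sequences can be hard to place between both genes. Since the start of Zfp943 lies within the Zfp942 window on the other strand, its promoter held the same letters as well, with 194 bases shared in the opposite orientation.

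Short motifs were searched by their letters on both strands of the 30 windows and of 27025 promoters, with 1 window for each gene. Shares are given in the order of all promoters, promoters of genes with a value per library, and promoters of Zfp1 to Zfp899. CCAAT was found in 20 windows (66.7%), compared with 37.9%, 39.5% and 44.0%. Some of these windows also share sequence, so they are not all separate cases. Runs of 21 to 26 bases were common to pairs of Zfp931, Zfp950 and Zfp951, and one of 21 to Zfp938 and Zfp959. The E-box letters CACGTG were found in 6 windows (20.0%), against 7.24%, 10.1% and 7.26%. Of these, 5 belonged to the chromosome 17 genes Zfp942, Zfp943, Zfp944, Zfp946 and Zfp947, and the first 3 share sequence. TATAAA was found in 0 of 30 windows, against 14.2%, 7.62% and 6.85%. GGGCGG was found in 33.3% of the windows, near the share of all promoters (35.9%) and below those of measured genes (62.4%) and Zfp1 to Zfp899 (46.8%). The letters AAGATGG (YY1), CCGGAAG (ETS factors), GCGCATGC (NRF1), TGACGTCA (CREB) and ACTACAA (ZNF143) were found in 2, 6, 0, 1 and 1 of the 30 windows. Their shares were 6.48%, 9.12%, 2.80%, 1.88% and 3.45% among all promoters, and 10.1%, 21.0%, 6.85%, 3.23% and 6.85% among those of Zfp1 to Zfp899, so that the 20.0% of members with the ETS letters was near the latter. Among measured genes the shares were 6.95%, 17.1%, 5.19%, 3.13% and 4.23%. A match is a run of letters and was not tested as a binding site. The median ratio of observed to expected CG pairs was 0.459 in the members, between those of all promoters (0.389) and of Zfp1 to Zfp899 (0.664), and 0.743 in the promoters of measured genes.

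In values scaled to library size, most of the family had fold changes near 0 on Ssrp1 knock-down. A gene was called where limma, fitted to log2(value + 0.5), gave a log2 fold change of KD over control beyond 1 in either direction with an adjusted p below 0.01, and 1 of the 32 measured members was called lower (Zfp964), where 20.6% of all 15384 genes were. No member was called higher, where 8.07% of all genes were. The count of 0 came from limma, and edgeR and DESeq2 on recovered reads also gave 0 members higher and 1 lower. By adjusted p alone, 4 members were lower (37.3% of all genes) and 7 were higher (35.4% of all genes). With 1 library left out these counts were 2 to 5 and 4 to 7, and over all genes 5403 to 5828 and 5144 to 5546. With DESeq2 they were 2 and 7 (5581 and 5530 of all genes), and with loess for exon length 2 and 12 (4442 and 7002). Scaling to spike-ins gave 0 and 21 (1346 and 8616), and quantile normalization 1 and 9 (4486 and 5187). The 95% interval of the log2 fold change lay within -1 to 1 for 30 of 32 members, compared with 58.9% of all genes. The median log2 fold change of the members was -0.09 against -0.03 over all genes, and their median absolute log2 fold change was 0.23 against 0.62. Of the 32 members, 28 moved by under 0.5 on the log2 scale, as did 41.8% of all genes. The 282 measured genes named Zfp1 to Zfp899 had a median of -0.20, with 9 called higher and 44 called lower. With scaling to spike-ins the median over all genes moved to 0.95 and that of the members to 0.90, and 13 members were then called higher, where 48.1% of all genes were, and 0 lower, where 7.03% were. With quantile normalization 1 member was called higher, against 9.87% of all genes, and 0 lower, against 10.8%.

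**Figure D1:**
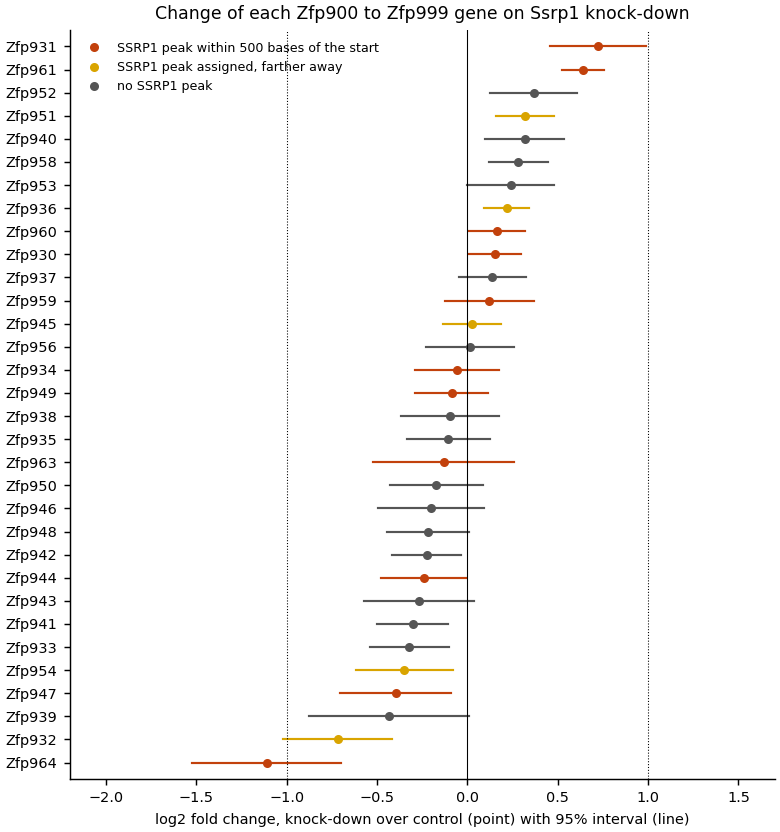
The log2 fold change of KD over control from limma is plotted for each of the 32 measured Zfp900 to Zfp999 genes, with its 95% interval as a line and the colour giving the SSRP1 peak, if any. All points but that of Zfp964 lie between the dotted lines at -1 and 1, and only the intervals of Zfp964 and Zfp932 reach past -1.

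Zfp964 was the single call. Its library-size values of replicates 1 to 4 were 4.76, 7.74, 6.28 and 5.47 for the control and 2.72, 2.64, 2.46 and 2.20 for the KD. The groups did not overlap, at 6.06 ± 1.28 against 2.50 ± 0.228 (SD, n = 4 each), with a log2 fold change of -1.11 (SE 0.20, adjusted p 1.56e-05, limma). Values are scaled so that a read in a shallower library counts for more, and behind them stood 35 to 45 reads in the control libraries and 22 to 45 in the KD libraries. Zfp964 had the lowest level but 1 of the 32 members per exon length, and its log2 fold change was -0.99 without control replicate 2, below the fold asked for. With scaling to spike-ins it was -0.20, and with quantile normalization 0.025, neither of them called.

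Zfp932, which is known to repress endogenous retroviruses in mESCs, had the next lowest fold change. It had values of 8.98, 9.47, 9.33 and 9.71 in the control and 5.44, 5.39, 5.37 and 5.80 in the KD libraries, with no overlap (log2 fold change -0.72, SE 0.15, adjusted p 8.09e-05, limma). The direction turned with scaling to spike-ins (0.24) and with quantile normalization (0.083). These values may not be those of Zfp932. The exons that the count table lists for it lie on the minus strand at chr5:110037393-110094418, and 0% of their bases fall in RefSeq exons of Zfp932, which runs on the plus strand at chr5:109996502-110012266. For each of the other members at least 99.9% of the listed exon bases were RefSeq exons of the same gene. Zfp932 also shared 37.0% of its 50-base words with transcripts of other genes, mostly Gm15446.

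The other members that were lower by adjusted p were Zfp933 at 17.8 ± 1.20 in the control and 14.1 ± 0.511 in the KD (SD, n = 4 each), and Zfp941 at 22.8 ± 0.350 and 18.4 ± 1.39. Neither pair of groups overlapped. Their log2 fold changes were -0.32 and -0.30. With DESeq2 the adjusted p was 0.021 for Zfp933 and 0.014 for Zfp941, both above the threshold. The sign of Zfp933 turned with scaling to spike-ins (0.67), with a loess correction for exon length (0.088) and with one for exon length and level (0.29), and that of Zfp941 with the same 3 settings (0.70, 0.075 and 0.033).

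Zfp961 and Zfp931 had the largest positive fold changes, both below the fold asked for. The level of Zfp961 was 100.05, 107.6, 97.8 and 103.7 in the control libraries and 161, 165, 163 and 149 in the KD libraries, so that every KD library was above every control library (log2 fold change 0.64, SE 0.06, adjusted p 8.6e-11, limma). For Zfp931 the values were 13.1, 15.0, 10.9 and 9.03 in the control and 21.5, 19.5, 20.6 and 17.8 in the KD (log2 fold change 0.72, SE 0.13, adjusted p 1.45e-05, limma). Those groups did not overlap either. Zfp931 shared 23.3% of its 50-base words with other genes, and Zfp961 0.879%.

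The remaining 5 that were higher by adjusted p were Zfp952, Zfp951, Zfp940, Zfp958 and Zfp936, with log2 fold changes between 0.22 and 0.37. Zfp936, a gene of high level, went from 88.1, 92.1, 91.7 and 91.6 in the control to 98.9, 101, 116 and 107 in the KD. Every KD value of Zfp951, Zfp952 and Zfp958 was above every control value, while the groups of Zfp940 overlapped. Over all members, the KD values lay wholly below the control values for 5 genes (37.5% of all genes) and wholly above for 7 (35.8% of all genes), and the groups of 20 members overlapped. The smallest changes belonged to Zfp956 (log2 fold change 0.01, 95% interval -0.23 to 0.26), Zfp945 (0.02, -0.14 to 0.19) and Zfp934 (-0.06, -0.29 to 0.17). These values depended on the scaling. With loess for exon length Zfp945 was at 0.66 (adjusted p 5.7e-08, limma), and with loess for exon length and level at 0.32 (adjusted p 0.00057). With the latter Zfp956 was at 0.40 (adjusted p 0.0026), and with quantile normalization at 0.42.

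**Figure D2:**
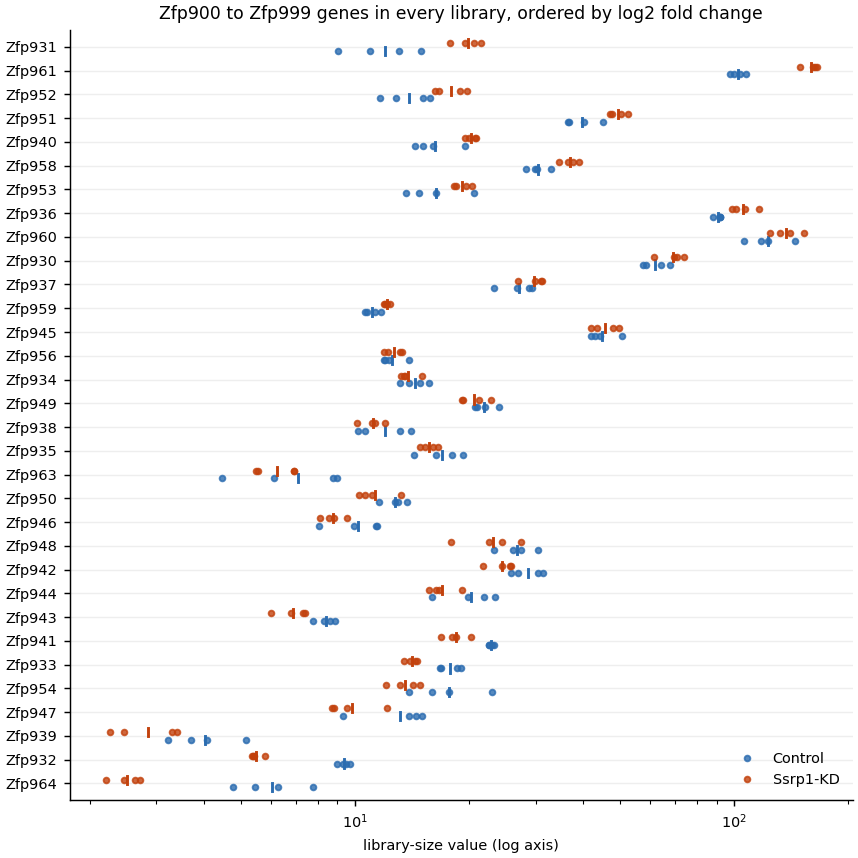
Library-size values on a log axis are plotted for the 32 measured members in each of the 4 control and 4 KD libraries, ordered by log2 fold change, with the mean of each group as a vertical bar. The groups stand apart at the top (Zfp931, Zfp961) and at the bottom (Zfp932, Zfp964), and overlap for 20 of the 32 genes.

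Over all genes the fold change went with the level. With all genes divided into 4 classes of equal size by mean level, in the lowest, the median log2 fold change was -1.10 and 54.3% were called lower. That class held 3 members, Zfp939, Zfp964 and Zfp963, with a median of -0.43. The next class, where the median over all genes was -0.25 and 21.2% were called lower, held 19 members with a median of -0.11 and no call. The class of highest level held Zfp930, Zfp936, Zfp960 and Zfp961, with log2 fold changes from 0.15 to 0.64 and a median of 0.19 against 0.45 over all genes. Across the 32 members Pearson's r of fold change with mean log2 level was 0.62 and Spearman's rho 0.58, compared with 0.56 and 0.59 across all genes. These are descriptions across genes, which share the same 8 libraries. Level was the mean over control and KD libraries, so the KD values enter both level and fold change. Part of this relation and of the class shares is thereby built in. A correction for this level can also take away part of a gene's own change. The KD libraries were also deeper, at 9433193 to 19856032 reads against 4602278 to 6680919 in the control, so that depth and group cannot be told apart. Of all genes, 15331 to 15354 had a value above 1 in each control library, and 14874 to 14976 in each KD library. Every measured member was above 1 in all 8 libraries, so some low genes behind the shares over all genes are unlike the members.

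The members were also set against all genes by exon length. Their lengths ran from 1740 to 6920 bases, with a median of 2743.5 against 2689.5 over all genes. From the shortest to the longest of 4 such classes by exon length, the median log2 fold change over all genes was 0.34, 0.03, -0.12 and -0.33. No member lay in the shortest class, and medians in the next 3 were -0.12 (14 members), -0.04 (14 members) and 0.08 (4 members). With a loess correction for exon length the log2 fold change of Zfp964 was -1.05 and the call stood, with 1 member lower (16.3% of all genes) and 0 higher (12% of all genes). With a correction for exon length and level together it was -0.25 with an adjusted p of 0.23 (limma), those of Zfp961 and Zfp931 were 0.12 and 0.70, and no member was called lower (6.01% of all genes) or higher (5.43% of all genes).

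**Figure D3:**
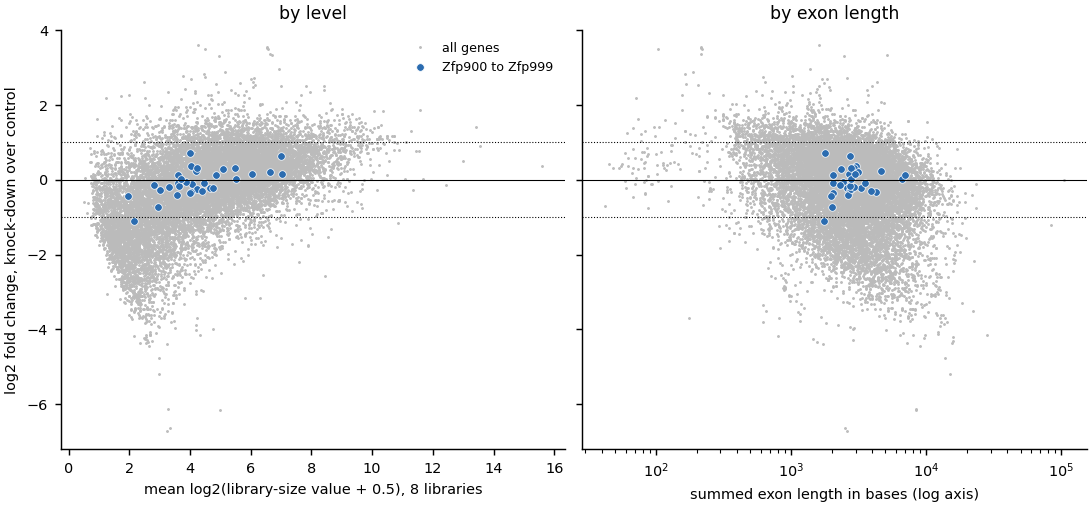
The log2 fold change of KD over control is plotted against mean log2 level (left) and summed exon length on a log axis (right), with all 15384 genes in grey and the 32 members in blue. In the left panel the 3 members of the lowest level class lie between -1.11 and -0.13 and the 4 of the highest class between 0.15 and 0.64, and the grey points also lie lower at low level.

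Levels between genes can be compared only per exon length. Per kilobase of exon, the highest means over the 8 libraries were those of Zfp960 (48.6), Zfp961 (48.2), Zfp936 (31.6), Zfp930 (21.8) and Zfp951 (15.3), and the lowest were those of Zfp964 (2.46) and Zfp939 (1.74). Zfp960 and Zfp961 stood within the spread of the libraries, in which Zfp960 ranged from 106 to 145 in the control before division by length. The place of Zfp960 was not the same elsewhere. The authors' average log2 expression is not divided by exon length, so its ranks are not of the same kind as those per kilobase. In their comparison of KD with control, Zfp961 was first with 6.84 and Zfp960 was at rank 15 of 32 with 3.82. In that of NPCs with mESCs, Zfp961 was again first and Zfp960 was at rank 23. The study also had control and KD libraries without spike-ins, and which libraries entered these averages is not known. By mean log2(value + 0.5) over the 8 libraries, also undivided, Zfp960 (7.02) and Zfp961 (7.00) were the highest members. Zfp960 shared 82.7% of its 50-base words with transcripts of other genes, 81.4% with Zfp97 alone, so its reads depend on how such sequence was counted and its level is uncertain. Zfp935 shared 100% of its words, nearly all with Gm49359, and its values are uncertain in the same way.

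In chromatin-bound RNA, 9 of 33 members (27.3%) had at least 10 reads in both libraries, compared with 25% of Zfp1 to Zfp899 and 20.8% of protein-coding genes. The members took 310 and 839 reads of 3441643 and 3393923 (0.00901% and 0.0247%), and protein-coding genes as a whole took 5.56% and 9.35%. Zfp936 had 51 and 185 reads, or 4.76 and 17.5 RPKM (scaled to exon length and to all reads of the library), the highest of the family in both. Zfp961 followed with 28 and 58 reads (2.99 and 6.29 RPKM), Zfp930 with 40 and 48, Zfp942 with 23 and 66, and Zfp945 with 31 and 138. The second library held more reads than the first for each of these 5 genes, and neighbours in this order changed places between the libraries. Zfp956 and Zfp939 had 1 read each over both libraries and Zfp957 had 0, although Zfp956 had a value of 12.6 ± 0.931 in control total RNA (SD, n = 4).

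The number of chromatin reads for a given level of total RNA varied from gene to gene. Zfp945 had 169 chromatin reads over both libraries, or 3.76 for each unit of its mean control value (exact Poisson interval 3.21 to 4.37 at 95%, counting error only). For Zfp960 the same ratio was 0.138 (0.0805 to 0.221), and for Zfp961 it was 0.841 (0.673 to 1.04). Among members with at least 10 reads in both libraries the median ratio was 1.94 (9 genes), against 1.08 in Zfp1 to Zfp899 (76 genes) and 0.812 in protein-coding genes (4445 genes) filtered alike. This filter acts on the reads that form the ratio, and over every measured gene the medians were 0.909 (32 members), 0.793 (282 genes) and 0.546 (14052 genes). The first 3 of the members by this ratio were Zfp945, Zfp942 and Zfp953. The total and chromatin libraries were prepared separately, and the part of library preparation in these ratios was not tested.

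**Figure D4:**
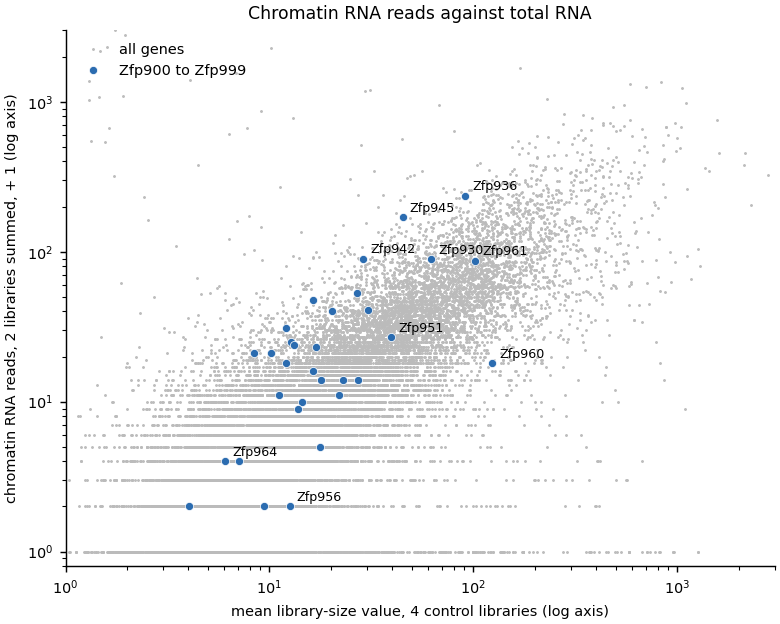
Reads in chromatin RNA, summed over both libraries with 1 added, are plotted against the mean library-size value of the 4 control libraries, both on log axes, with all genes in grey, the members in blue, and 59 of the 15384 genes outside the axes. Zfp945 and Zfp942 lie high for their total RNA, and Zfp960 and Zfp956 low.

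FACT peaks were assigned to 18 of the 33 members. Of these, 16 (48.5%) had a SSRP1 peak, compared with 34.9% of Zfp1 to Zfp899, 27.7% of protein-coding genes and 36.0% of genes with a value per library. A SUPT16 peak was assigned to 8 members (24.2%), against 19.7%, 13.4% and 18.6%. Both were assigned to 6 members (18.2%, against 13.8% of Zfp1 to Zfp899 and 9.01% of protein-coding genes), namely Zfp930, Zfp934, Zfp951, Zfp954, Zfp960 and Zfp961. The SUPT16 peak of each of these 6 overlapped one of its SSRP1 peaks. The peaks had been assigned by nearest gene, and for Zfp951, Zfp954 and Zfp958 the assigned peaks lay 33399 to 47309 bases outside the gene. The only peaks of Zfp945 lay 8516 and 9398 bases before its start, and a SSRP1 peak of Zfp960 lay 66003 bases before. That of Zfp932 lay 41017 bases outside the gene as listed in the count table. A SSRP1 peak within 500 bases of the listed start was found for 11 members (33.3%), against 19.4% of Zfp1 to Zfp899 and 22.7% of measured genes.

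The SSRP1 peaks within genes lay at the start, in introns or on the last exon. At the gene start, a SSRP1 peak covered the listed first base of Zfp930, Zfp934, Zfp944, Zfp949, Zfp959, Zfp961, Zfp963 and Zfp964, and peaks lay 175 and 337 bases into Zfp931 and Zfp947 and 147 bases before Zfp960. A SUPT16 peak covered the start of Zfp930, Zfp934, Zfp960 and Zfp961, and that of Zfp941 lay 308 bases into the gene. Introns of Zfp934 and Zfp961 held a further SSRP1 peak each, 5493 and 1612 bases from the start. At the other end, Zfp936 and Zfp961 had SSRP1 peaks on the last exon, the one that encodes the fingers. In Zfp936 a peak of 294 bases lay wholly in that exon, and the next, chr7:43191246-43193108, put 863 of its 1862 bases there and the rest past the end of the gene. In Zfp961 a peak of 588 bases at chr8:71969142-71969730 lay wholly in the last exon, and another of 1764 bases began 1455 bases past the end. These 2 genes had 3 and 4 SSRP1 peaks, the most of any member, and were the first 2 of the family by chromatin RNA per exon length. No SUPT16 peak was listed at those last exons. The peak assigned to Zfp932, at chr5:109996082-109996376, lay 98042 bases from the start in the count table but covered 100 bases of the promoter window of the RefSeq gene.

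Members with peaks lay at both ends of the range of fold changes. Of the 11 members with a SSRP1 peak within 500 bases of the start, the only called member (Zfp964) and both members with the largest positive fold changes (Zfp931 and Zfp961) were in this group, as were Zfp934, Zfp949 and Zfp963 with fold changes near 0. The median log2 fold change was -0.02 in the 16 measured members with any assigned SSRP1 peak and -0.14 in the 16 without. The promoters with SSRP1 bases in the 300-base window (7 members) had a median of 58% G and C, compared with 52% in the other 23.

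**Figure D5:**
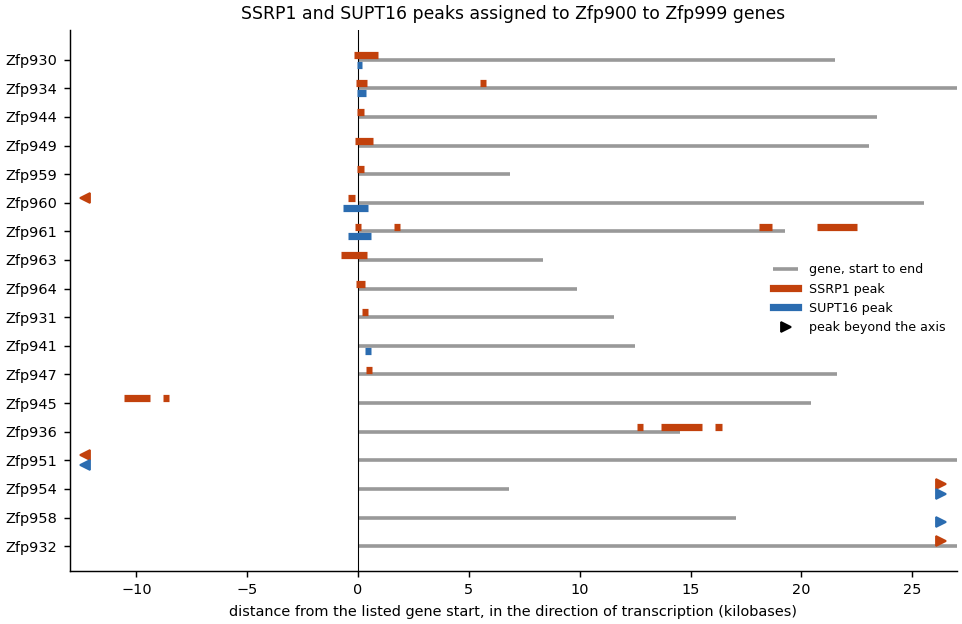
SSRP1 peaks (orange) and SUPT16 peaks (blue) assigned to 18 members are drawn by their distance from the listed gene start in kilobases, to scale, with each gene as a grey line and triangles for peaks beyond the axis. SSRP1 peaks cover the start of 8 genes and SUPT16 peaks that of 4, while the SSRP1 peaks of Zfp936 lie at the end of the gene and Zfp961 has SSRP1 peaks at both ends.

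The partners of KRAB zinc finger proteins mostly had higher values in the KD when scaled to library size. How many were called depended on the scaling and on correction for exon length and level. All 25 genes of a list of co-repressors and heterochromatin factors were measured, and 4 were called higher (16%, against 8.07% of all genes and 15.3% of the class of highest level) and 0 lower. The called genes were Cbx1 (log2 fold change 1.51) and Cbx3 (1.43), which encode HP1 proteins that bind methylated H3K9, Chaf1b (1.19), a subunit of the replication-coupled histone chaperone CAF-1, and Ehmt2 (1.16), a H3K9 methyltransferase. By adjusted p alone 21 were higher (35.4% of all genes) and 1, Atf7ip (-0.60), a partner of SETDB1, was lower (37.3% of all genes). Trim28 stood at 881 ± 19.9 in the control and 1540 ± 96.1 in the KD (SD, n = 4 each; log2 fold change 0.80), and Setdb1 at 170 ± 4.53 and 224 ± 6.03 (0.39). Of 6 KRAB zinc finger genes with known targets in mESCs, Zfp459 (1.66) and Zfp819 (1.14) were called higher, where 8.07% of all genes were. Zfp57, the guardian of imprints, had a log2 fold change of 0.68, and Zfp809, which recognises a retroviral primer binding site, had one of -0.11. The list's median was 0.56 for the 25 factors and 0.54 for the 6 zinc finger genes, beside -0.03 over all genes and 0.45 in the class of highest level. With loess for exon length and level the medians were 0.12 and -0.03, and 0 of the 25 factors were called. Of all genes 5.43% were then called higher and 6.01% lower. By adjusted p 10 of the factors were higher and 5 lower, as were 4831 and 4012 of all 15384 genes. With quantile normalization the medians were 0.10 and -0.05, and 2 of the 25 were called higher (8%, against 9.87% of all genes). With scaling to spike-ins 24 of the 25 were called higher (96%, against 48.1%), with a median of 1.57 against 0.95. With loess for exon length alone 11 were called higher (44%, against 12%), with a median of 0.86 against 0.20. Of the 6 zinc finger genes, 5 were called higher with scaling to spike-ins (48.1% of all genes). With loess for exon length, loess for exon length and level, and quantile normalization 2 were called higher (12%, 5.43% and 9.87% of all genes).

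Of the 62 genes that the RefSeq table names Zfp900 to Zfp999, 24 carried another symbol in the count table and so were not members. With them added the count of calls was again 1 lower and 0 higher, of 56 genes, and the median log2 fold change was 0.12. The genes Zfp955a and Zfp955b, whose symbols end in a letter, had log2 fold changes of 0.63 and 0.69.

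Cell type markers moved with the groups. All 8 ES cell markers were measured, and their summed value was 1620 to 1738 in the control libraries and 4667 to 5154 in the KD libraries. Of them 6 were called higher, where 8.07% of all genes and 15.3% of the class of highest level were. Summed markers of fibroblasts were at 50.0 to 63.7 in the control and 13.1 to 14.9 in the KD, those of primitive endoderm at 61.5 to 90.2 and 26.6 to 31.0, those of trophectoderm and epithelium at 1038 to 1394 and 766 to 814, and those of 2-cell-like cells at 1026 to 1106 and 542 to 628. Neural markers were at 83.7 to 107 and 145 to 155, but of the 5 measured only Tubb3 rose (33.6 ± 5.27 to 108 ± 4.56, SD, n = 4 each). The other 4 were lower by adjusted p (37.3% of all genes), and the median log2 fold change of the list was -0.96. Of these lists 4 of 5, 3 of 5, 3 of 7, 2 of 6 and 2 of 5 measured genes were called lower, where 20.6% of all genes were. Among the called genes, Col1a2, Col3a1, Postn, Gata4, Sox17, Cdx2, Krt14, Pax6 and Map2 lay in the class of lowest level. In that class 54.3% of all genes were called lower. The level was the mean over control and KD libraries, so a gene's own fall lowers its class. Control means of these genes ran from 4.99 (Cdx2) to 18.0 (Krt14), so the share of 54.3% is not an independent background for them. Of the neural genes 1, Tubb3, was called higher, where 8.07% of all genes were. Tcstv1, Dux, Neurog2, Foxa2 and Elf5 had no value. The part of these cells in the members' values was not tested, and in bulk RNA fewer cells of a type and less RNA per cell cannot be told apart.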

How the data were processed

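The members were found by symbol in the chromatin RNA count table and joined by gene ID. They and the gene lists were chosen with earlier results of these data known. RNA-seq signal per gene and library was deposited by the authors (STAR 2.5.1b and mm10 per the labels, featureCounts, genes with low values removed) in a scaling to library size, used here, and one to spike-ins. Whole reads were recovered within 0.1 for 100% of values. Chromatin RNA read counts were deposited raw by the authors (STAR 2.4.1b). The authors' average log2 expression was read from their limma tables, whose fold changes and p-values, like the exon table, were not used. The authors called peaks with PePr on 2 replicates together (Bowtie2 2.2.6) and assigned them to the nearest gene.

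Values were fitted as log2(value + 0.5) with limma 3.58.1 (trend, Benjamini-Hochberg adjustment over 15384 genes), so that folds of low genes are understated. Alternatives used edgeR 4.0.16, DESeq2 1.42.0, other pseudocounts, filters and scalings, loess corrections, a block for replicate number, and fits leaving out 1 library at a time. The tools were tested on simulated data. Every member passed the authors' filter with values above 1 in all 8 libraries except Zfp957. Named were the called members, those of highest level, highest chromatin level, any peak or smallest change, and others by adjusted p after their values were seen. The methods call the 4 RNA-seq replicates of a group biological, without saying whether they were separate transfections. The ChIP replicates came from independent cultures. No 2 libraries agreed within sampling noise (chi-square per degree of freedom 1.88 to 6.61). Sequences are from RefSeq GRCm38.p6, the mm10 assembly. Protein sequences, MNase-seq, NET-seq and ATAC-seq were not used here.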

Additional observations from a re-analysis of the deposited data

Results flagged for a closer look

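Of 64 groups of 4 libraries (32 members, control and KD), 3 had 1 library far from the other 3, where chance gives about 1 in 20. Zfp932 had a value of 5.80 in KD replicate 4, against 5.37 to 5.44 in the other KD libraries. Zfp956 had 13.9 in control replicate 2, against 12.0 to 12.3 in the other control libraries. Zfp936 had 88.1 in control replicate 1, against 91.6 to 92.1 in the others. Each of these gaps was small beside the value itself, and the causes were not tested.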

How the results depend on the processing

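The count of members called lower was 1 (Zfp964), and 0 with a pseudocount of 2, with a mean value of at least 5 (30 members, Zfp964 not among them), with scaling to spike-ins, with quantile normalization and with a loess correction for exon length and level. It was 4 with no minimum fold, and 0 to 1 with each library left out, 0 without control replicate 2. The count called higher was 0, and 13 with scaling to spike-ins (48.1% of all genes), 1 (Zfp931) with quantile normalization (9.87% of all genes) and 7 with no minimum fold (35.4% of all genes), and 0 in every fit with a library left out. The median log2 fold change of -0.09 was 0.90 with scaling to spike-ins, 0.11 with quantile normalization, 0.13 with loess for exon length, 0.14 with loess for exon length and level, and 0.12 with genes of present RefSeq names added, an alternative chosen after seeing the data, and it ranged from -0.12 to -0.020 with each library left out. Over all genes the medians were 0.95, 0.05, 0.20 and 0.05 in the first 4 of these settings, so that most of the first shift is shared by all genes. The cause was not tested. Members with a SSRP1 peak fell from 16 to 8 and those with a SUPT16 peak from 8 to 2 when only peaks of at least 500 bases were kept, against 17.6% and 6.08% of measured genes with such peaks (24.2% and 6.06% of members). In the gene or 1000 bases before it, 12 members had a SSRP1 peak (36.4%, against 32.8% of measured genes) and 5 a SUPT16 peak (15.2%, against 17.9%). Members detected in chromatin RNA were 9 at 10 reads, 28 at 1 read and 1 at 50 reads, and 9 to 19 when 1 of the libraries was left out.

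Of the 32 members, the sign of the fold change turned for 17 with scaling to spike-ins, 15 with quantile normalization, 12 with loess for exon length and 15 with loess for exon length and level. For the members named by rule the values were as follows. With scaling to spike-ins the log2 fold change was 0.24 for Zfp932, 0.93 for Zfp934, 0.70 for Zfp941, 0.78 for Zfp942, 0.76 for Zfp944, 0.58 for Zfp947, 0.91 for Zfp949, 0.64 for Zfp954 and 0.82 for Zfp963. With quantile normalization it was -0.15 for Zfp930, 0.083 for Zfp932, 0.25 for Zfp934, -0.13 for Zfp936, -0.19 for Zfp945, 0.078 for Zfp947, -0.24 for Zfp960, 0.73 for Zfp963 and 0.025 for Zfp964. With loess for exon length it was 0.15 for Zfp934, 0.075 for Zfp941, 0.090 for Zfp942, 0.017 for Zfp944, 0.25 for Zfp949 and 0.050 for Zfp963. With loess for exon length and level it was -0.16 for Zfp930, 0.16 for Zfp934, -0.19 for Zfp936, 0.033 for Zfp941, 0.051 for Zfp947, 0.14 for Zfp949, -0.37 for Zfp960 and 0.62 for Zfp963. Zfp956 was at -0.00022 with TMM scaling. With a library left out, Zfp956 ranged from -0.011 to 0.062 and Zfp945 from -0.016 to 0.083. The replicate block gave 1 lower, 0 higher and a median of -0.09, and changed no call. Same-numbered libraries correlated at -0.057 to 0.018, so the values showed no pairing by number. Whether same-numbered libraries were prepared together is not known.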
